A study of Rattus norvegicus with 54 samples.

Results

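RNA was measured in cultured rat cortical neurons at the 6 h time point, counted from the induction of epileptiform activity, in 6 libraries from cultures given a virus carrying rMBD3 and GFP and in 6 libraries from cultures given a control virus carrying GFP. These 12 libraries were chosen by construct and time point from a series of 54. The neurons came from embryonic (E18) cortex, and both viruses were adeno-associated viruses whose cargo was driven by the SYN promoter (AAV_SYN_rMBD3_GFP, called rMBD3 below, and AAV_SYN_GFP, called GFP). Each construct was measured in 3 libraries from standard medium with magnesium and 3 libraries from magnesium-free medium, the condition that the labels call epileptic. Cultures were numbered 1 to 3, and every number occurred in each of the 4 groups, so that 6 pairs of rMBD3 and GFP libraries shared a medium and a culture number. Cultures without virus (6 libraries at 6 h) served as a second reference. The age of the cultures at transduction, the share of neurons carrying virus and the genotype of the animals are not given in the sources used here. The RNA came from whole wells, so that a change in the number of cells of a type and a change in RNA per cell cannot be told apart. The count table names genes by Ensembl identifier, and 0 identifiers matched the 47357 genes of the reference table at hand. The labelled cell type could therefore not be checked against neuronal or glial markers, gene lists by symbol were not analysed here, and genes below are described by position, structure, level and behaviour.

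MBD3 is a core subunit of the NuRD complex, which joins a chromatin remodelling motor to histone deacetylases at promoters and enhancers. Unlike its relatives in the methyl-CpG binding domain family, mammalian MBD3 binds methylated DNA weakly. The complex is known for tuning the level of active genes as well as for silencing. Magnesium ions block the channel of NMDA-type glutamate receptors at rest, and taking magnesium out of the medium makes cultured cortical networks fire in seizure-like bursts. The comparison asks which transcripts differed in cultures overexpressing rMBD3, over both media.

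The transgene, counted under ENSRNOG00000028956 (mRatBN7.2, chromosome 7, 9313098 to 9320165, plus strand, 1923 exonic bases), was read first. Levels are in CPM, the count relative to library size after scaling the libraries for composition. With rMBD3 the transgene stood at 7730, 8510 and 10216 CPM in cultures 1, 2 and 3 with magnesium. In magnesium-free medium it stood at 10532, 8959 and 9992 CPM. The 6 GFP libraries held 168 to 269 CPM and the 6 untransfected libraries 177 to 271 CPM, so that no rMBD3 library came near either reference. Reads from the virus and from the cell's own gene cannot be told apart in these counts. The mean was 9323 ± 1099 CPM with rMBD3 and 200.2 ± 39.7 CPM with GFP (SD, n = 6 each), a log2 difference of 5.59 ± 0.16 (SE) that is given as a check of the labels. The same difference was 6.66 ± 0.25 at 2 h and 4.44 ± 0.23 at 24 h, in other libraries. The transgene took 0.746% to 1.03% of all counts in the rMBD3 libraries at 6 h and is left out of everything below.

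**Figure D1:**
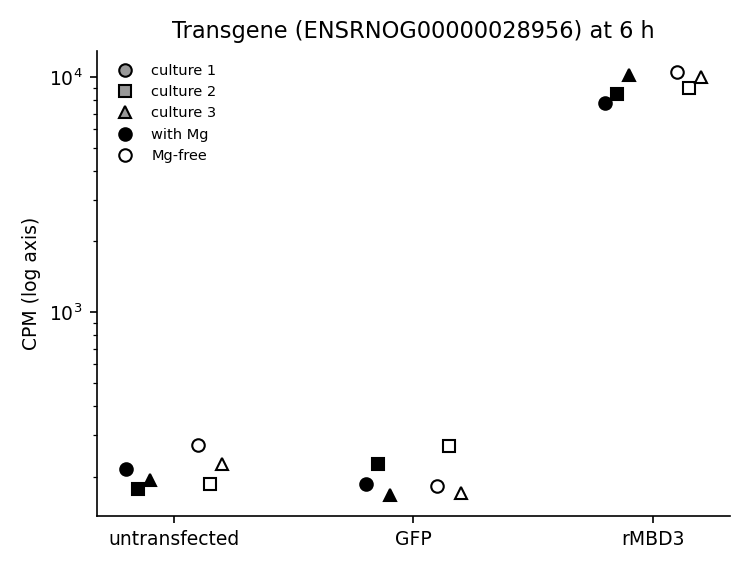
Level of the transgene at 6 h in CPM (log axis) by construct, with 1 point per library. Shapes mark the culture number, filled points medium with magnesium and open points magnesium-free medium. The 6 rMBD3 libraries lie between 7730 and 10532 CPM, and GFP and untransfected libraries lie together at 168 to 271 CPM.

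Total counts ran from 16965518 to 28675136 per library (median 24722615), and 3 counts, taken as the smallest readable level, were worth 0.102 to 0.173 CPM. Such limits cover counting error only. Mitochondrial genes held 3.15% ± 0.638 of counts with rMBD3 and 2.78% ± 0.858 with GFP (SD, n = 6 each), higher with rMBD3 in 5 of 6 pairs (exact two-sided sign-flip permutation test, p = 0.219). The 50 most abundant genes, transgene left out, held 13.3% ± 1.07 and 12.7% ± 1.24, also higher in 5 of 6 pairs (exact two-sided sign-flip permutation test, p = 0.0625, and 0.125 after Benjamini-Hochberg adjustment over these 2 shares). The smallest p that 6 pairs allow is 0.0312, and pairs from the same culture are not independent. The part of these shares in the results below was not tested.

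More genes were higher with rMBD3 than lower at 6 h. Of 15490 genes tested, 954 (6.16%) passed an adjusted p of 0.05 in edgeR's quasi-likelihood test with medium and culture number as blocks. With rMBD3, 706 genes (4.56%) rose and 248 (1.6%) fell. The genes that rose did so by a median of 0.748 on the log2 scale (0.242 to 4.25), and those that fell had a median log2 change of -0.476 (-2.19 to -0.245). Over all genes tested the median log2 change was 0.00366. Most changes were small. Of the genes that rose, 127 changed by under 0.5 on the log2 scale, 424 by 0.5 to 1, 136 by 1 to 2 and 19 by 2 or more. Of the genes that fell, 144 changed by under 0.5, 95 by 0.5 to 1, 8 by 1 to 2, and the remaining 1 by more. Among genes that were not called, 432 had fitted changes of 1 to 2 on the log2 scale in either direction and 37 of 2 or more. Scaling by library size alone shifted the median log2 change by -0.044 and gave 586 higher and 421 lower genes, so that higher genes made up 58.2% of calls in place of 74%.

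The number of genes called rested on the culture block, on cultures 2 and 3 and on single libraries of every culture. Without the block the same test called 16 genes, all of them among the 954, and the coefficient of variation between libraries was 30.5% in place of 20.9%. Leaving out culture 1, 2 or 3 gave 1170, 192 and 4 calls. Of 12 fits that each left out 1 library, 7 changed the count by more than 1.5 times. Those 7 called 400 genes without the culture 2 GFP library in magnesium-free medium, 328 without the culture 2 rMBD3 library with magnesium and 390 without the culture 3 GFP library with magnesium. They called 471 and 439 genes without the culture 3 rMBD3 libraries with and without magnesium, and 563 and 476 without the culture 1 rMBD3 libraries with and without magnesium. The largest of the 12 counts, 1407, came without the culture 1 GFP library with magnesium. DESeq2 with the same blocks called 1895 genes, and a fit over all 54 libraries called 532.

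**Figure D2:**
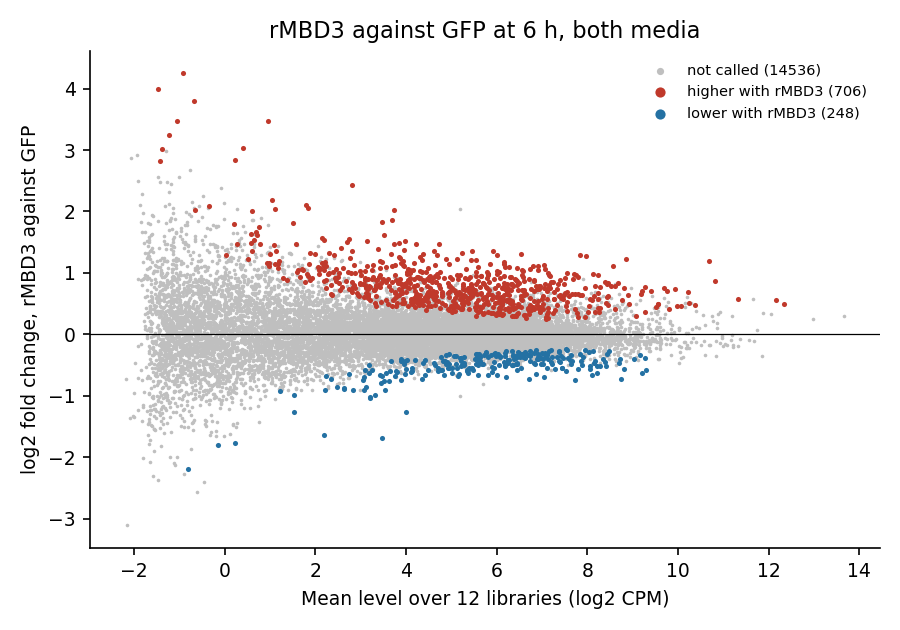
Log2 fold change of rMBD3 against GFP at 6 h (vertical axis) against the mean level over the 12 libraries in log2 CPM (horizontal axis), with 1 point per gene and the transgene left out. Red points are the 706 genes called higher, blue points the 248 called lower and grey points the rest. The blue cloud is thinner and lies closer to zero than the red one.

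The direction of the called genes held in nearly every pair of libraries. Because these libraries chose the genes, the following values describe the lists and do not test them. In medium with magnesium the median log2 difference of the 706 higher genes was 0.991 in culture 1, 0.643 in culture 2 and 0.593 in culture 3. In magnesium-free medium it was 0.653, 0.673 and 0.512. Culture 1 with magnesium stood apart as the pair with the widest difference. There the GFP library had a median level over these genes of 4.65 log2 CPM, the untransfected library 5.26 and the rMBD3 library 5.64. For the 248 lower genes the median log2 difference was -0.824, -0.441 and -0.517 in cultures 1 to 3 with magnesium. In magnesium-free medium it was -0.48, -0.285 and -0.384. The medians over all 15490 genes lay between -0.0556 and 0.0158 in the 6 pairs.

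All 6 pairs had the same sign for 665 of the 706 higher genes (94.2%) and for 241 of the 248 lower genes (97.2%), against 17.3% of all genes tested. Levels in the 6 rMBD3 libraries lay entirely above those in the 6 GFP libraries for 119 of the higher genes (16.9%, with 1.03% of all genes tested). They lay entirely below for 81 of the lower genes (32.7%, with 0.968% of all genes tested). Most called genes thus differed within pairs while their ranges across cultures overlapped. The lower genes were also the more abundant, with a median level of 5.99 log2 CPM against 5.13 for the higher genes and 4.42 for all genes tested.

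**Figure D3:**
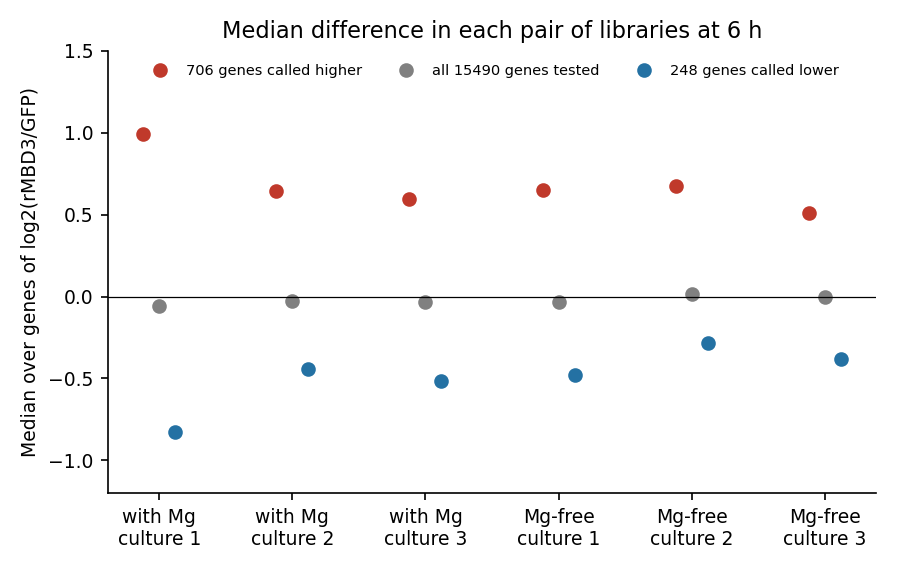
Median over genes of the log2 difference between rMBD3 and GFP (vertical axis) in each of the 6 pairs of libraries at 6 h (horizontal axis), for the 706 genes called higher (red), the 248 called lower (blue) and all 15490 genes tested (grey). Culture 1 with magnesium has the widest medians, 0.991 and -0.824, and the grey points stay near zero.

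Genes called in 2 of the cultures were then read in the culture that had played no part in calling them. With culture 1 held out, 1065 of 1170 called genes (91%) had the same sign in culture 1, against 63% of all genes tested. With culture 2 held out, 189 of 192 (98.4%) did, against 59.6% of all genes. With culture 3 held out, 4 of 4 did, against 68.9% of all genes. The median difference in the held-out culture, signed by the direction called, was 0.663, 0.734 and 1.23 on the log2 scale for cultures 1, 2 and 3.

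Against cultures without virus, both lists had larger median changes with rMBD3 than with GFP. These comparisons share libraries with the one above, so their values are set side by side only. Since the lists were chosen for a difference between rMBD3 and GFP, they cannot show in which construct the change lay. By median level this order did not hold in every pair. In culture 1 with magnesium the higher genes lay further from the untransfected library with GFP than with rMBD3. The same held for the lower genes in culture 3 in magnesium-free medium. Their median level was 6.194 log2 CPM with GFP, 5.997 without virus and 5.849 with rMBD3. The higher genes had a median log2 change of 0.584 in rMBD3 against untransfected cultures and -0.152 in GFP against untransfected cultures. For the lower genes the medians were -0.308 and 0.157. At 6 h, 877 of 15984 genes tested (5.49%) passed in rMBD3 against untransfected cultures, 559 of them higher (3.5%) and 318 lower (1.99%; edgeR's quasi-likelihood test, culture as a block). The control virus against no virus gave 13 (0.0813%), 10 higher (0.0626%) and 3 lower (0.0188%), with 2226 at an unadjusted p under 0.05, and DESeq2 called 429, of which 187 were higher and 242 lower. Without the block these counts were 234 and 0. Leaving out cultures 1, 2 and 3 gave 1723, 264 and 131 calls for rMBD3 against untransfected cultures. The same 3 fits gave 75, 2 and 0 calls for GFP against untransfected cultures, and the 75 were 31 higher and 44 lower, so that neither direction prevailed throughout.

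In the test within each medium, more genes passed with magnesium than without, but no gene's effect was shown to differ between media. With magnesium 275 of 15942 genes (1.73%) passed, 195 higher (1.22%) and 80 lower (0.502%) with rMBD3. In magnesium-free medium 6 (0.0376%) passed, all higher, and all of them also passed with magnesium. At an unadjusted p under 0.05 there were 3583 genes with magnesium and 1642 without. This gap was small once culture 1 was left out, at 2220 and 2029 genes, with 262 and 159 passing. It stayed wide without culture 2 (3876 and 1172 genes) and without culture 3 (2105 and 803). With all cultures, the median standard error of a gene's log2 change was 0.205 in both media, but the fit used a common estimate of spread for them. Equal standard errors therefore cannot show whether the spread differed between media. The test of the difference between media called 0 genes in edgeR (863 at an unadjusted p under 0.05, smallest adjusted p 0.739) and 23 in DESeq2.

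Genes that passed with magnesium mostly kept their direction in the libraries without it. Over all 15942 genes tested, the log2 changes in the 2 media correlated at 0.262 (Pearson). Of the 195 that rose with magnesium, 194 were also higher in magnesium-free medium, against 50.6% of all genes. An unadjusted p under 0.05 there was found for 155 (79.5%), against 7.03% of all genes in that direction. The median log2 change of the 195 was 1.08 with magnesium and 0.658 without. Of the 80 that fell, 77 were also lower in magnesium-free medium, against 49.4% of all genes. There 38 (47.5%) had an unadjusted p under 0.05, against 3.27% of all genes. The median log2 change of the 80 was -0.714 with magnesium and -0.289 without. Since the genes were chosen in medium with magnesium, their larger changes there are partly fixed by the choice. Counts per medium were as fragile as the pooled one. With magnesium they were 0 without the block, 1631 in DESeq2, and 262, 60 and 0 without cultures 1, 2 and 3. In magnesium-free medium they were 0 without the block, 353 in DESeq2, 43 with no filter on low counts, and 159, 0 and 0 without cultures 1, 2 and 3.

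The 6 h lists were then read at 2 h and 24 h, in libraries of their own. The tests at 2 h and 24 h came from a joint fit over the rMBD3 and GFP libraries of all time points, including those at 6 h. That fit estimated spread over all these libraries, whereas the 6 h lists came from the 12 libraries at 6 h alone. Numbers of genes called at different time points were therefore not obtained at equal power. At 2 h, 1897 of 16659 genes tested (11.4%) passed, 1195 higher (7.17%) and 702 lower (4.21%). Of the 706 genes higher at 6 h, 664 were higher at 2 h and 422 passed (59.8%, and 35.3% of the genes higher at 2 h), with a median log2 change of 0.625. Of the 248 genes lower at 6 h, 241 were lower at 2 h, but 70 passed (28.2%, and 9.97% of the genes lower at 2 h), with a median of -0.289. Both shares lay above those of all genes tested.

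At 24 h, 3262 genes (19.6%) passed, 1347 higher (8.09%) and 1915 lower (11.5%), so that lower calls outnumbered higher ones. Of the 706 genes higher at 6 h, 406 passed at 24 h in the same direction (57.5%, and 30.1% of the genes higher at 24 h), with a median log2 change of 0.488, and 6 passed in the opposite direction. Of the 248 genes lower at 6 h, 160 passed in the same direction (64.5%, and 8.36% of the genes lower at 24 h), with a median of -0.465. Leaving out cultures 1, 2 and 3 gave 1233, 604 and 1190 calls at 2 h. At 24 h it gave 4224, 1903 and 806. Without the block there were 385 calls at 2 h and 776 at 24 h.

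The effect at 6 h was not shown to differ from that at 2 h for any gene (0 calls in edgeR, 1419 at an unadjusted p under 0.05, smallest adjusted p 0.0595, and 237 calls in DESeq2). Between 24 h and 6 h it differed for 183 of 16659 genes (1.1%). Because these genes were chosen by that difference, their values and calls at 6 h and 24 h are partly fixed by the choice. For 159 of them (0.954%) the effect was lower at 24 h. Their median log2 change was -0.18 at 6 h and -1.46 at 24 h, 152 passed as lower at 24 h, and of the 158 tested at 6 h 13 had passed there as higher and 9 as lower, where 4.56% and 1.6% of all genes did. For the other 24 (0.144%) the median was -0.27 at 6 h and 0.329 at 24 h, and 15 passed as higher at 24 h. Of the 23 tested at 6 h, 1 had passed there as higher and 6 as lower. Without the block 0 genes passed this test, and leaving out cultures 1, 2 and 3 gave 1134, 3 and 0.

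The higher and lower genes differed in the length of DNA they occupy. When tested genes were ranked by genomic span, from first to last annotated base, and split into 5 equal quintiles, the share called higher at 6 h was 2.42% in the shortest quintile (median span 3.01 kb). It was 3.62%, 4.03% and 4.62% in the next 3 quintiles and 8.1% in the longest (median span 132 kb). The share called lower lay between 1.45% and 1.78% across the quintiles of all tested genes. Level was related to calling as well, since 0.968% of the least abundant quintile were called higher and 6.1% of the most abundant. Within the upper 3 quintiles of level, the shares called higher by span were 4.52%, 4.25%, 4.63%, 5.81% and 9.95%, with the 2 longest quintiles above the others. The shares called lower there were 3.01%, 2.31%, 1.56%, 2.26% and 2.42%, highest for the shortest genes. Among the 198 tested genes spanning more than 500 kb, 8 were called higher (4.04%, near the 4.56% of all genes) and 5 lower (2.53%). The median change of that set was -0.077 on the log2 scale. This set was not matched for level, and its difference from the longest quintile was not tested.

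At 2 h the pattern was another one, with 4.95% of the shortest quintile and 8.46% of the longest called higher, and 0.84% and 7.83% called lower. At 24 h, 3.48% of the shortest and 14.5% of the longest quintile were called higher, and 12.5% and 13.4% were called lower. The quintiles between had smaller shares called lower at 24 h, of 12%, 10.3% and 9.27%. At 6 h, rMBD3 against untransfected cultures gave 2% and 5.51% higher and 1.69% and 1.09% lower in the shortest and longest quintiles. The quintiles between had larger shares called lower there, of 2.5%, 2.5% and 2.16%. For rMBD3 against GFP, the share called lower thus differed widely between the shortest and longest genes at 2 h and little at 6 h. The shares at 2 h and 24 h came from the joint fit over time points and those for rMBD3 against GFP at 6 h from the 12 libraries alone. These shares are descriptions that were not matched for level, and the differences between time points were not tested.

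**Figure D4:**
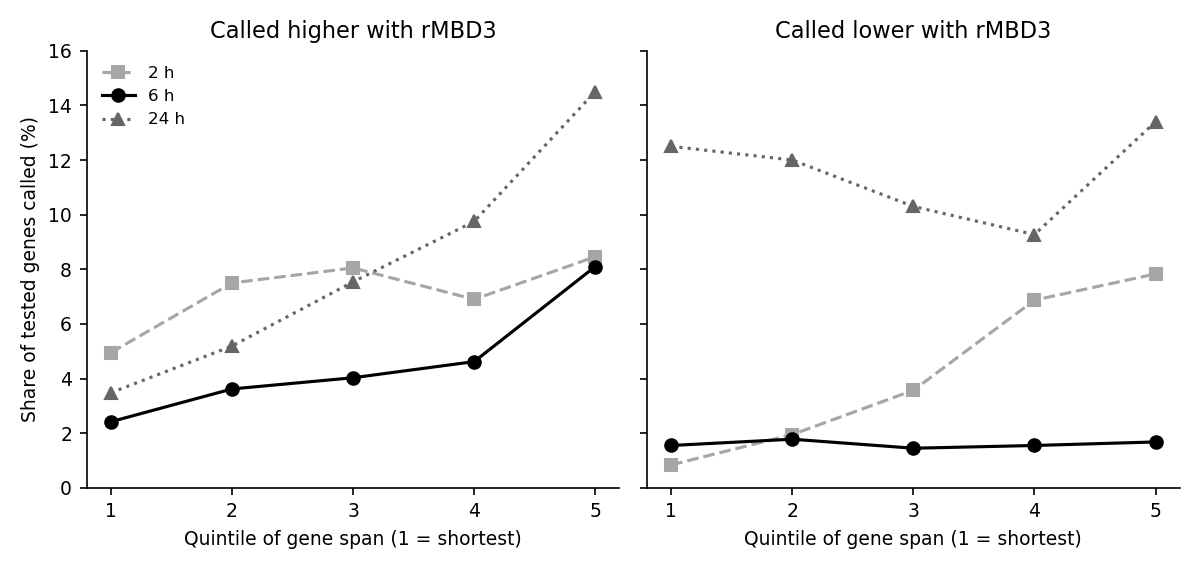
Share of tested genes called higher (left) and lower (right) with rMBD3 against GFP, in percent, by quintile of genomic span from shortest to longest, at 2, 6 and 24 h. At 6 h (solid line) the share called higher climbs from 2.42% to 8.1%, and the share called lower stays between 1.45% and 1.78%. The 2 h and 24 h shares came from a joint fit over time points and the 6 h shares from the 12 libraries at 6 h alone.

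Exonic length, the length of the transcribed exons alone, went with calling as higher and also with calling as lower. The share called higher was 2.07% in the quintile with the shortest exons (median 1.17 kb) and 6.58% in the quintile with the longest (median 6.61 kb). The share called lower was 0.839% and 1.71% in these quintiles, and 2.13% in the quintile next to the longest. These shares were not matched for level. Lower calls also rose with level, from 0.0968% of the least abundant quintile to 3.42% of the most abundant. By chromosome, higher calls ranged from 2.65% of 529 tested genes on X to 8.04% of 398 on chromosome 11, among chromosomes with at least 100 tested genes. A gene called higher was followed along the chromosome by another gene called higher in 7.51% of cases, against 4.56% of all genes. For lower genes that share was 0.403%, against 1.6% of all genes. On the mitochondrial chromosome 21 of 37 annotated genes could be tested. The fitted change was positive for 18 of them with a median of 0.28 on the log2 scale, and 1 passed (4.76%), near the background for higher genes.

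The 4 single genes named below had the largest changes, 2 in each direction, among called genes with the same sign in all 6 pairs and a mean level of at least 1 log2 CPM. They were chosen by their values in this comparison, so their tests at 6 h describe the choice. ENSRNOG00000000500 (chromosome 20, 6199182 to 6228584, plus strand, 4385 exonic bases) had the largest rise among genes that met these conditions. With rMBD3 it stood at 17.1, 5.63 and 7.94 CPM in cultures 1 to 3 with magnesium, and at 22.05, 8.44 and 7.87 CPM in magnesium-free medium. With GFP it stood at 3.23, 1.20 and 2.14 CPM with magnesium and 3.02, 1.02 and 2.07 CPM without. The 2 sets of libraries did not overlap, and culture 1 was highest in each group of both constructs. The log2 change was 2.43 ± 0.18 (SE, edgeR adjusted p = 6.46e-05), 2.22 ± 0.25 with magnesium and 2.64 ± 0.26 in magnesium-free medium. It was 1 of the 4 genes still called without culture 3.

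In untransfected cultures at 6 h ENSRNOG00000000500 stood at 0.109 to 0.717 CPM, below all GFP libraries of that time point. It thus took 3 separate levels at 6 h, lowest without virus, intermediate with GFP and highest with rMBD3. The log2 change of GFP against untransfected cultures was 2.32 ± 0.37 (edgeR adjusted p = 0.0293). In that comparison no gene passed without the block (smallest edgeR adjusted p 0.341) or without culture 3 (smallest edgeR adjusted p 0.387), so this call was lost in both. The log2 change of rMBD3 against untransfected cultures was 4.78 ± 0.37 (edgeR adjusted p = 6.67e-07). In the libraries of the other time points rMBD3 exceeded GFP by 1.88 ± 0.28 at 2 h (edgeR adjusted p = 5.16e-05) and 2.48 ± 0.28 at 24 h (edgeR adjusted p = 1.3e-06), on the log2 scale. Means were 7.96 ± 4.65 and 2.16 ± 0.997 CPM at 2 h and 13.9 ± 2.80 and 2.72 ± 1.90 CPM at 24 h, for rMBD3 and GFP (SD, n = 6 each). GFP and untransfected libraries overlapped at 2 h, at 0.737 to 3.45 and 0.307 to 0.898 CPM. They also overlapped at 24 h, at 1.00 to 6.34 and 0.0941 to 1.78 CPM.

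ENSRNOG00000069516 (chromosome 16, 32760028 to 32788299, minus strand, 507 exonic bases) was scarce and at 6 h varied widely between cultures. With rMBD3 it held 4.42, 0.156 and 1.58 CPM in cultures 1 to 3 with magnesium and 9.17, 1.09 and 1.65 CPM without. With GFP it held 2.32, 0 and 0.156 CPM with magnesium and 2.53, 0.0340 and 0.576 CPM without. Culture 1 was high and culture 2 low under both constructs, and the 2 sets overlapped although every pair was higher with rMBD3. The 0 of the culture 2 GFP library allows up to 0.116 CPM, and its rMBD3 partner had 4 counts. The log2 change was 2.18 ± 0.47 (edgeR adjusted p = 0.0198). The call was lost without the block (adjusted p = 0.489), without culture 2 (0.0523), without culture 3 (0.244) and in the fit over all 54 libraries (0.101). The untransfected libraries ranged from 0 to 6.39 CPM, across the whole GFP range. Against them the log2 change was 1.51 ± 0.59 with rMBD3 (edgeR adjusted p = 0.159) and -0.796 ± 0.61 with GFP (edgeR adjusted p = 0.579), and neither passed. At 2 h the log2 change was 1.33 ± 0.60 (edgeR adjusted p = 0.159), and at 24 h it was 1.59 ± 0.55 (edgeR adjusted p = 0.0413).

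ENSRNOG00000033173 (chromosome 1, 69077207 to 69095316, plus strand, 3713 exonic bases) had the largest fall among genes that met these conditions. With GFP it stood at 1.86, 37.4 and 13.8 CPM in cultures 1 to 3 with magnesium and 1.12, 36.4 and 15.6 CPM without. With rMBD3 it stood at 1.38, 6.73 and 6.14 CPM with magnesium and 0.349, 4.68 and 6.15 CPM without. Culture 1 was low under both constructs, and in cultures 2 and 3 the rMBD3 libraries were the lower ones in each pair. The log2 change was -1.69 ± 0.33 (edgeR adjusted p = 0.013). It was lost without the block (adjusted p = 0.272), without culture 2 (0.128), without culture 3 (0.147) and over all 54 libraries (0.0509). Without culture 2 the log2 change was -1.04.

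In the cultures without rMBD3 the mean level of ENSRNOG00000033173 was highest at 6 h, with a wide spread between cultures. Cultures 2 and 3 were highest at 6 h in each medium with GFP and without virus, whereas culture 1 was not in any of these groups. The level over the 3 successive time points was 4.16 ± 3.16, 18.1 ± 16.2 and 2.91 ± 1.75 CPM without virus, and with GFP 4.04 ± 2.24, 17.7 ± 16.01 and 4.12 ± 2.13 CPM (SD, n = 6 each). With rMBD3 the means were 5.25 ± 4.80, 4.24 ± 2.72 and 1.72 ± 1.30 CPM. The log2 change against GFP was 0.295 ± 0.30 at 2 h (edgeR adjusted p = 0.625) and -1.41 ± 0.32 at 24 h (edgeR adjusted p = 0.00194). The difference of the effect between 6 h and 2 h was -1.96 ± 0.44 and did not pass (edgeR adjusted p = 0.204).

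ENSRNOG00000006639 (chromosome 3, 51145146 to 51293516, minus strand, 148 kb span with 10041 exonic bases) was lower with rMBD3 in every pair. With GFP it stood at 2.58, 9.26 and 11.8 CPM in cultures 1 to 3 with magnesium and 3.98, 7.78 and 5.19 CPM without. With rMBD3 it stood at 1.11, 3.17 and 3.29 CPM with magnesium and 0.568, 3.35 and 1.97 CPM without. Culture 1 was again the lowest in each of these groups, so that the 2 sets overlapped across cultures. The log2 change was -1.64 ± 0.24 (edgeR adjusted p = 0.00461). It was lost without the block (adjusted p = 0.152) and without culture 3 (0.118). Untransfected cultures held 1.19 to 8.35 CPM, and the log2 change of rMBD3 against them was -1.17 ± 0.24 (edgeR adjusted p = 0.00672). In other libraries the gene was lower by -1.56 ± 0.27 at 2 h (edgeR adjusted p = 0.000243) and by -2.31 ± 0.31 at 24 h (edgeR adjusted p = 5.81e-06), on the log2 scale. Its mean level was also lower at the later time points without rMBD3, with successive GFP means of 23.9 ± 12.97, 6.77 ± 3.48 and 4.97 ± 3.03 CPM over the 3 time points (SD, n = 6 each).

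**Figure D5:**
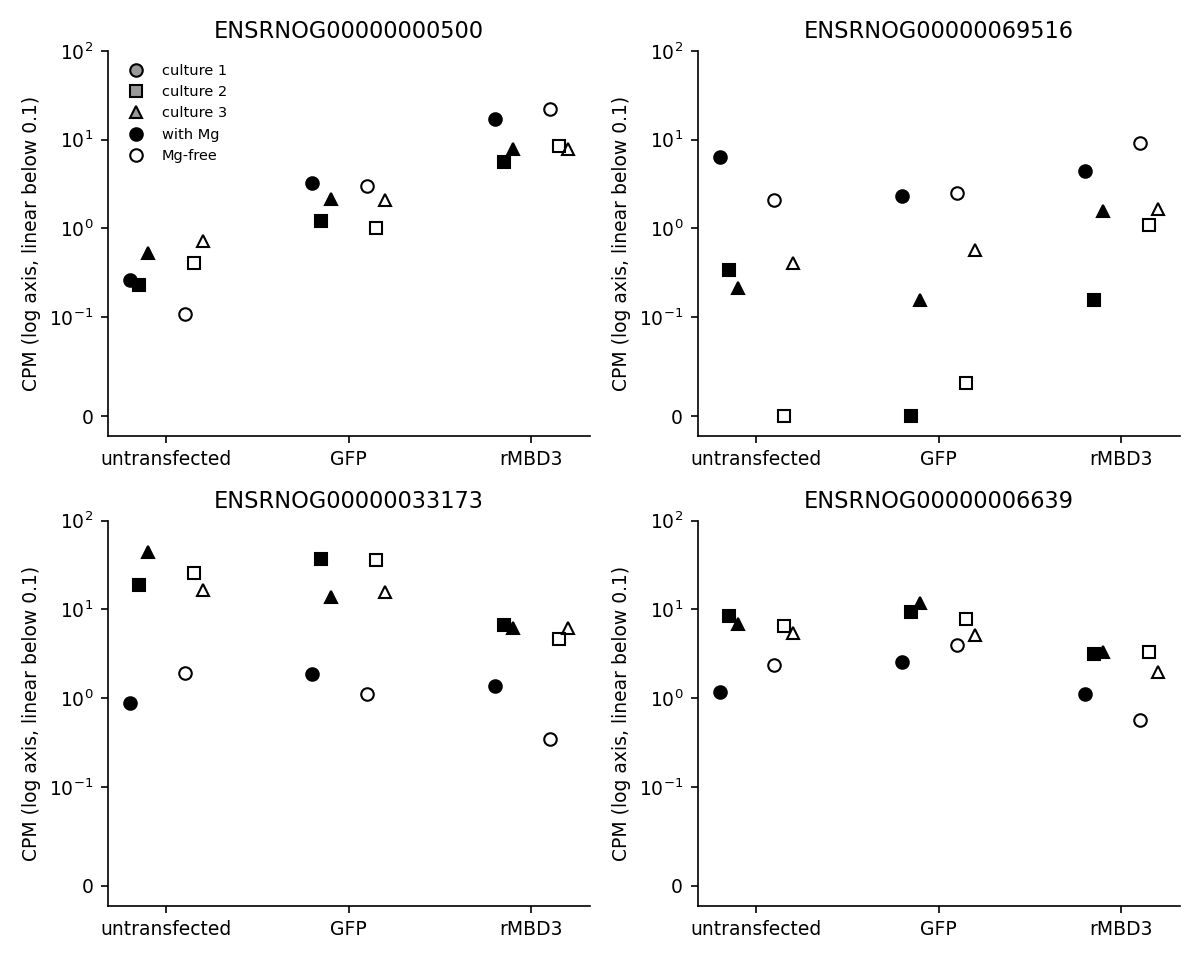
Level of the 4 named genes at 6 h in CPM (log axis, linear below 0.1 CPM) by construct, with 1 point per library. Shapes mark the culture number, filled points medium with magnesium and open points magnesium-free medium. ENSRNOG00000000500 lies at 3 separate levels, while the other 3 genes spread mainly by culture, with rMBD3 shifted within each culture.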

How the data were processed

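The authors deposited gene counts of read pairs made with featureCounts 2.0.0 at strand setting 2 and minimum mapping quality 3, on Ensembl mRatBN7.2, release 105, per the file headers. The labels' protocol names STAR, rn6 and a stranded mRNA kit. The submitters' processing notes name mRatBN7.2, and the table's coordinates are used. Counting used strand; reads shared by near-identical genes may be misplaced. The deposited log2 table was not used. Counts were tested with edgeR 4.0.16 in R 4.3.3 (TMM scaling, filterByExpr, robust quasi-likelihood test, Benjamini-Hochberg adjustment at 0.05), with DESeq2 1.42.0 as an alternative, and both were tested on simulated data. Within-pair differences added 0.5 counts. The culture number, labelled as a biological replicate, was a block: deviations of same-numbered rMBD3 and GFP libraries from their group means correlated at 0.178 to 0.489 in 6 of 6 pairs. No within-group pair agreed within sampling noise (chi-square per gene 16.4 to 271). Named genes were the 2 per direction with the largest change, the same sign in 6 pairs and at least 1 log2 CPM on average. Members, lists and rules were chosen with earlier results of these data known. Promoter sequences could not be matched and were not used here. Alternatives covered the block, scaling, filters, DESeq2, all 54 libraries, removal of the transgene before scaling and each culture. Leaving out single libraries was chosen after seeing the data.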

Additional observations from a re-analysis of the deposited data

Results flagged for a closer look

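The rMBD3 effect differed between 24 h and 6 h for 183 genes by a test of the difference itself (edgeR's quasi-likelihood test, adjusted p under 0.05, with culture as a block within each time point). The effect was higher at 24 h for 24 genes and lower for 159. The median difference of the effect, 24 h minus 6 h, was 0.699 on the log2 scale for the former and -1.22 for the latter. Both medians are partly fixed by the choice of genes, which was made by the same difference. Groups held 3 libraries each, so no library was tested as an outlier within its group.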

How the results depend on the processing

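For rMBD3 against GFP at 6 h in both media, the count of 954 became 16 without the culture block, 532 in the fit over all 54 libraries and 1895 in DESeq2, and ran from 4 to 1407 when a culture or a library was left out. It moved by under 1.5 times under the other 7 alternatives that kept all 12 libraries: a block per medium, 3 scalings, 2 filters and removal of the transgene. The count of 275 with magnesium became 0 without the block and 1631 in DESeq2, and ran from 0 to 262 without 1 culture. The count of 6 in magnesium-free medium became 0 without the block, 353 in DESeq2 and 43 with no filter on low counts, and ran from 0 to 159 without 1 culture. The difference between media gave 0 genes under every alternative but DESeq2, which gave 23. rMBD3 against untransfected cultures (877) gave 234 without the block, 1457 in DESeq2 and 131 to 1723 without 1 culture. GFP against untransfected cultures (13) gave 0, 429 and 0 to 75. At 2 h the count of 1897 became 385 without the block and ran from 604 to 1233 without 1 culture. At 24 h the count of 3262 became 776 without the block and ran from 806 to 4224. The difference between 6 h and 2 h gave 0 genes except in DESeq2 (237). The difference between 24 h and 6 h (183) gave 0 without the block, 940 in DESeq2, 86 with no filter and 0 to 1134 without 1 culture. Of 64 refits of the 4 named genes and the transgene in rMBD3 against GFP at 6 h, 54 kept their call, 10 lost it and 0 changed sign. The transgene and ENSRNOG00000000500 kept theirs in every refit of rMBD3 against GFP. Apart from the fits with fewer libraries, the cause of these shifts was not tested.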
